A study of Rattus norvegicus with 4 samples.

Results

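The genes described here are 9 interferon-induced antiviral genes and their regulators (Ifit1, Ifit2, Ifit3, Isg15, Usp18, Mx1, Mx2, Oas1a and Irf7), out of 13261 rat genes with usable values. They were chosen by symbol with their levels in view: Ifit1 was nearly absent in replicate 1, whereas the others had been described as highest there. Their levels are therefore a description and carry no test. All 9 had values in all 4 samples, with at least 152 reads in each except for Ifit1 in replicate 1, and the samples held 13566962 to 16207027 reads in the genes used. RNA was taken from sieved glomeruli of male Wistar rats of about 150 to 175 g, all given an intravenous injection of Adriamycin (ADR, doxorubicin), an anthracycline that injures podocytes and produces nephrotic syndrome in rodents. The 4 samples form a single group with no allele or further agent named. The labels give harvest on day 11 or 21 without saying which applies. They do not state in words that each sample is a separate rat, so the spread between samples, called animals below, may be partly technical. Untreated rats and rats given puromycin aminonucleoside or PPARγ agonists were not analysed here, so no level can be read as induced or repressed by ADR.

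Type I interferons bind a receptor on most cell types, and the kinases Jak1 and Tyk2 then phosphorylate STAT proteins, which join Irf9 in a complex that binds interferon-stimulated response elements in target promoters. The targets include proteins that bind viral RNA or block its translation (the IFIT family), degrade RNA (the OAS family, through RNase L), trap viral particles' components (the Mx GTPases) or modify proteins (Isg15, a ubiquitin-like protein). Irf7 amplifies the response by driving interferon genes, and Usp18 removes Isg15 from proteins and restrains receptor signalling. Kidney cells, podocytes and tubular cells included, can express these genes, as can the leukocytes that enter injured tissue.

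Promoters are shown because members that varied together are known targets of a common factor, and the letters of its binding element can be looked for. The reference table (RefSeq, build GRCr8, 250 bases before to 50 bases after the start) held 4 of the 9 members. In the sequences below, capitals mark matches to GAAA followed by any 2 bases and GAAA, the core of an interferon-stimulated response element, on either strand.
Ifit3 (chr1:241527076-241527375, plus strand): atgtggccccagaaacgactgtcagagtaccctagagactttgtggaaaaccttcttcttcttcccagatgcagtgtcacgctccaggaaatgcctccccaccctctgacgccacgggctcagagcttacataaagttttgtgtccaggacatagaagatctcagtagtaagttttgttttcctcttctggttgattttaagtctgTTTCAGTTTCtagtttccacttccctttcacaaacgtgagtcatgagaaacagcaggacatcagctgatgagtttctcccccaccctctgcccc
Irf7 (chr1:205799974-205800273, minus strand): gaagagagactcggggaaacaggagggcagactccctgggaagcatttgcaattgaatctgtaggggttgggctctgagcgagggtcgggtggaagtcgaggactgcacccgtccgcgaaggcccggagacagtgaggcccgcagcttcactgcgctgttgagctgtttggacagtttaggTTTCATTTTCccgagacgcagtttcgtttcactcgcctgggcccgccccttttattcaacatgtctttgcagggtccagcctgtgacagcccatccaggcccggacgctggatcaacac
Oas1a (chr12:41330216-41330515, plus strand): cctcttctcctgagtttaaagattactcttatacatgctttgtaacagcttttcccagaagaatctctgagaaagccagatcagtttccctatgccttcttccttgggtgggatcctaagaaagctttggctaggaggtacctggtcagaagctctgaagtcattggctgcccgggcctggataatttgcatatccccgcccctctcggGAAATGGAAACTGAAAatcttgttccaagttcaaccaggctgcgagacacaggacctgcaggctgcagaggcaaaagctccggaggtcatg
Mx1 (chr11:50294557-50294856, minus strand): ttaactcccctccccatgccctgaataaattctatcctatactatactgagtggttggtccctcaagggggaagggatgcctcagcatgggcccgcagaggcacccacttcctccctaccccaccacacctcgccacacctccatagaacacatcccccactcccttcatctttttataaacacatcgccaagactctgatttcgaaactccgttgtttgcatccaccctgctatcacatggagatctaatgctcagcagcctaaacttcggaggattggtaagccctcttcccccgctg
The match lay 44 to 35 bases before the start in Ifit3 and 69 to 60 bases before it in Irf7. Oas1a held a pair of matches that overlap, at 41 to 32 and 35 to 26 bases before the start. The Mx1 window held no match. Of all 33469 promoters in the table, 1312 held the motif, or 3.92%. Among the other genes of the interferon system described below, 38 of the 87 in the table held it, or 43.7%. This share counts genes, and a gene with several promoters counted if any of them held a match, as for Ifit1bl. The share of all promoters counts each promoter separately, so these percentages are not like measures and cannot be compared directly. A match describes letters only and does not show binding.

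The IFIT genes encode tetratricopeptide proteins that recognise foreign RNA. Ifit1 (ENSRNOG00000019050) had 2 reads in replicate 1 and 428, 680 and 644 reads in replicates 2 to 4, which corresponds to 0.147, 26.4, 44.3 and 42.2 CPM (reads scaled to the same total in each sample, in counts per 1000000 reads). Replicate 1 lay far below the other animals, and replicate 2 lay below replicates 3 and 4 beyond counting error. The exact 95% Poisson interval of the 2 reads ran from 0.242 to 7.22 reads. Relative to the pooled rate of the other animals, 37.4 CPM, replicate 1 was 254 times lower, with a 95% counting interval of 70.2 to 2099 times (exact conditional binomial). Such intervals cover counting error only. The deposited log2 values add 0.5 reads to each count, and on that scale replicate 1 was below the mean of the others by 7.64 (a difference of -7.64). On log2(CPM + 1) the difference was -5.04, so its size depends on the scale.

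Ifit2 (ENSRNOG00000036604), a neighbour and relative of Ifit1, had 95.1, 76.3, 64.6 and 96.5 CPM in replicates 1 to 4. Ifit3 (ENSRNOG00000022839), which partners Ifit1 in a complex, had 36.2, 31.3, 29.2 and 42.5 CPM. Both were highest in replicate 4, next highest in replicate 1 and lowest in replicate 3, so neither followed the description that placed them highest in replicate 1. For Ifit2 the Poisson intervals of replicates 4 and 1 overlapped, as they did for Ifit3. Ifit3 varied least of the members, with an SD of 0.24 on the log2 scale, and the intervals of all its neighbours in the order of animals overlapped.

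**Figure D1:**
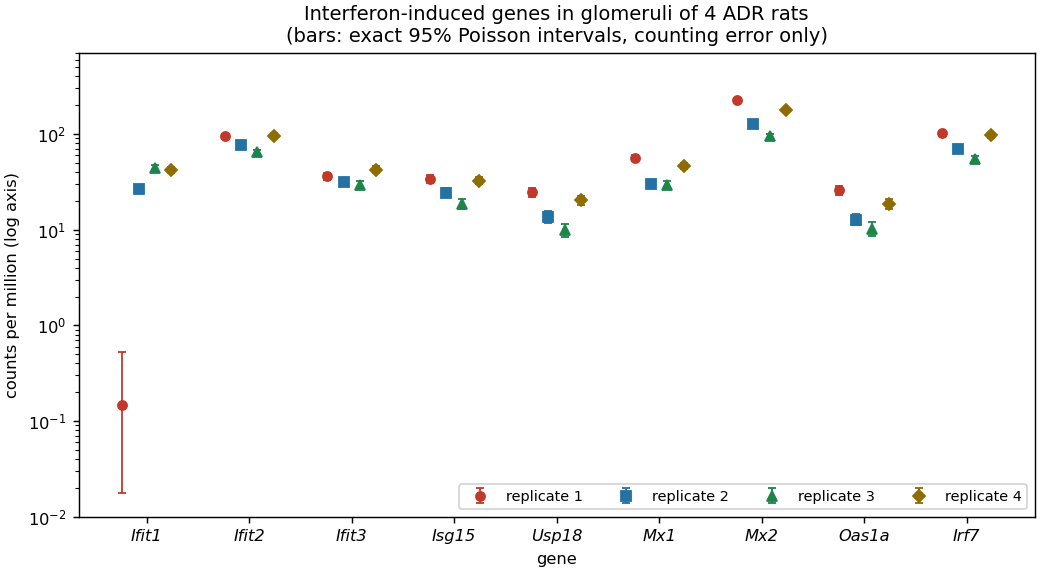
CPM (log axis) of the 9 interferon-induced genes in each of the 4 animals, with exact 95% Poisson intervals as bars. Ifit1 sits at 0.147 CPM in replicate 1 and between 26.4 and 44.3 CPM in the other animals, while the remaining 8 genes are lowest in replicate 3.

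Genes around Ifit1 were examined for low values in replicate 1 in the gene order of GRCr8, where Ifit1 lies on chromosome 1 and its annotated span overlaps that of its relative Ifit1bl. Reads of overlapping or closely related genes cannot be assigned with certainty, so the values of both are uncertain to that extent. Ifit1bl had 91, 110, 247 and 223 reads in replicates 1 to 4, that is, low in replicates 1 and 2 alike. On the other side, Slc16a12, a creatine transporter gene, had 2333, 2180, 1374 and 2270 reads and was highest in replicate 1 once scaled. Ch25h, which makes an antiviral oxysterol and is interferon-induced, had 88, 143, 166 and 255 reads and was lowest in replicate 1. Of the 5 measured genes on each side (Ch25h, Lipa, Ifit2, Ifit3 and Ifit1bl, then Slc16a12, Pank1, Kif20b, Rpp30 and Ankrd1), differences of replicate 1 from the mean of the others ran from -0.85 to 0.50 (log2), and the fewest reads in replicate 1 were the 88 of Ch25h.

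**Figure D2:**
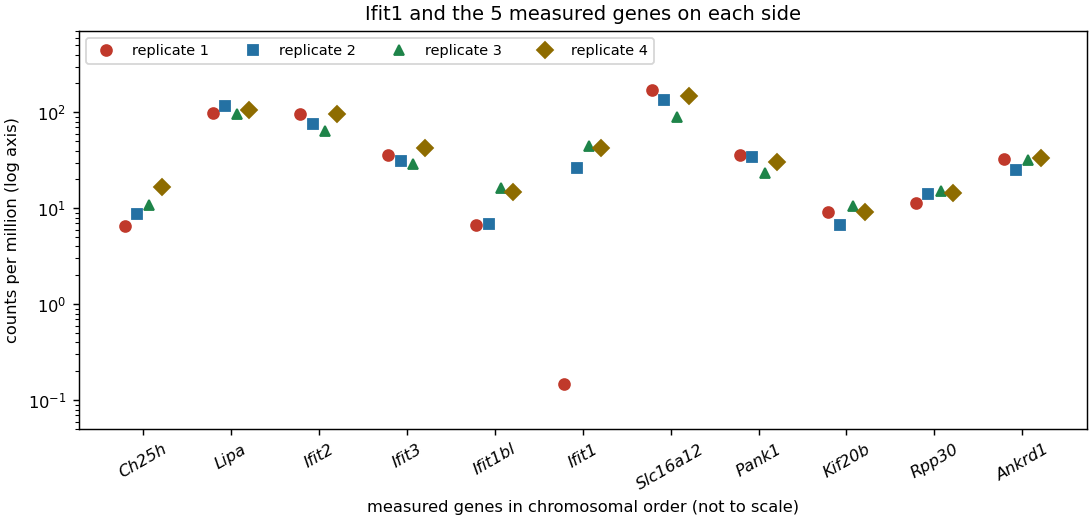
CPM (log axis) of Ifit1 and the 5 measured genes on each side in chromosomal order, one symbol per animal. Ifit1 in replicate 1, at 0.147 CPM, is the lowest point, and no neighbour shows a gap of that size.

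No gene in the table came close to Ifit1 in this respect. Replicate 1 was 7.16 below the lowest other animal (log2), the first of all 13261 genes in that measure. The next were Tssk3 (6 reads in replicate 1 against 37 to 58 in the others), Abca8a (42 against 182 to 257), AC128848.1 (329 against 1302 to 2378), Cacnb4 (4 against 17 to 47) and Chi3l1 (24 against 95 to 208), with gaps of 2.35 down to 1.71. None of these 5 genes belongs to the interferon lists used here.

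Isg15 (ENSRNOG00000021802) encodes the ubiquitin-like modifier. Its levels were 34.2, 24.5, 18.7 and 32.6 CPM in replicates 1 to 4, with replicates 1 and 4 above replicates 2 and 3 and the intervals of replicates 1 and 4 overlapping. Usp18 (ENSRNOG00000037198), the protease that removes it, had 24.7, 13.6, 9.90 and 20.3 CPM. The animals fell in the same order, and the highest level of Usp18 was 2.49 times the lowest, against 1.83 times for Isg15.

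Mx1 (ENSRNOG00000001959) and Mx2 (ENSRNOG00000001963) encode dynamin-like GTPases and lie on chromosome 11. Mx1 had 55.6, 30.1, 29.7 and 46.6 CPM in replicates 1 to 4, so replicates 2 and 3 could not be told apart by counting error. Mx2 had 227, 128, 96.2 and 179 CPM, and here all 4 animals were separated by their intervals. Reads of these related genes may be divided between them with some uncertainty.

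Oas1a (ENSRNOG00000001369) encodes a 2'-5'-oligoadenylate synthetase, a sensor of double-stranded RNA. It had 25.7, 12.8, 10.2 and 18.6 CPM in replicates 1 to 4, the widest ratio of highest to lowest among the 8 members other than Ifit1, at 2.51. Replicate 1 was above replicate 4, and replicate 4 above replicates 2 and 3, beyond counting error. Oas1a has close tandem relatives, so its reads are uncertain in the same way. Irf7 (ENSRNOG00000017414), the transcription factor, had 103, 69.5, 54.7 and 96.8 CPM, with overlapping intervals for replicates 1 and 4 and separate ones below them.

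Apart from Ifit1, the members thus shared an order over animals. Replicates 1 and 4 were both above replicate 2, and replicate 2 above replicate 3, in 8 of 8, an order found in 1063 of all 13261 genes (8.02%); the stricter order of replicates 1, 4, 2 and 3 was found in 6 of them and in 5.47% of all genes. Replicate 1 was the highest in 6 of the 9 members, against 27.7% of all genes, and replicate 3 the lowest in 8 of the 9, against 19.6%. Ifit1 had its highest level in replicate 3, where the others were lowest, although its intervals in replicates 3 and 4 overlapped. The choice of members used these values, so nothing follows from the comparison with all genes. Of the 24 steps between neighbouring animals in the 8 genes, 15 had separate Poisson intervals, including all 6 steps from replicate 4 to replicate 2 and 5 of the 8 from replicate 2 to replicate 3. The difference of replicate 1 from the mean of the others ran from 0.10 (Ifit3) to 0.93 (Oas1a) on the log2 scale, with a median of 0.60, against -0.02 over all genes. Without replicate 3 this difference was -0.01 for Ifit3, which had 0.26 without replicate 4, and fell to 0.15 for Ifit2, 0.28 for Isg15 and 0.33 for Irf7. The median SD was 0.44, against 0.18.

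The same order appeared in markers of another cell type. Centred on each gene's own mean, the 8 members averaged 0.43, -0.21, -0.50 and 0.28 (log2) in replicates 1 to 4, and the 6 proximal tubule genes Slc34a1, Lrp2, Cubn, Slc5a2, Slc22a6 and Aqp1 averaged 0.50, 0.02, -0.65 and 0.13. Their summed levels were 5118, 3698, 2488 and 4147 CPM, highest in replicate 1 and lowest in replicate 3. The order of the members was shown by 4 of the 6, against 8.02% of all genes. Tubular fragments are known to accompany sieved glomeruli; their part in the members' result was not tested. The share of reads from mitochondrial genes was 7.63%, 12.8%, 9.65% and 7.74% in replicates 1 to 4, lower in replicates 1 and 4 than in 2 and 3, and higher in replicate 2 than in 3; with these genes out of the total, the 8 members kept their order in 8 of 8. In bulk tissue, fewer cells of a type and less RNA per cell cannot be told apart.

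The 7 podocyte markers, among them Nphs1 for the slit diaphragm, summed to between 5037 and 8701 CPM, with 6 of the 7 highest in replicate 1 (27.7% of all genes) and 0 in the order of the members (8.02%). Their centred levels averaged 0.32, -0.47, -0.09 and 0.23 (log2) in replicates 1 to 4, high in replicates 1 and 4 as in the members, but lowest in replicate 2. The 5 endothelial markers summed to 4256 to 5563 CPM, lowest in replicate 1, as were 3 of the 5. Of all genes, 35.0% were lowest in replicate 1, the share to set beside this count and those below. The 5 mesangial markers summed to 1685 to 2175 CPM, and 2 of the 5 were lowest in replicate 1, near that share. All 3 leukocyte markers, Ptprc, Laptm5 and Coro1a, were lowest in replicate 1 and highest in replicate 3, summing to 137, 187, 289 and 204 CPM in replicates 1 to 4; replicate 4 lay above replicate 2, as in the members. The 6 macrophage and monocyte markers summed to 417 to 649 CPM, and 5 of the 6 were lowest in replicate 1; the other, C1qa, had 71.9, 83.7, 48.0 and 54.0 CPM and was lowest in replicate 3. Lowest in replicate 1 were also the 3 B cell markers (4.50 to 27.2 CPM), the 2 neutrophil markers (6.27 to 35.7 CPM), the 3 erythroid markers (720 to 1337 CPM) and the T cell marker Cd3e (1.18 to 3.32 CPM). The 4 genes listed for plasmacytoid dendritic cells, which make interferon, summed to 402 to 467 CPM, and all 4 were lowest in replicate 1. Glomerular cells can express all of them, however, and the defining marker Siglech was not analysed here.

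**Figure D3:**
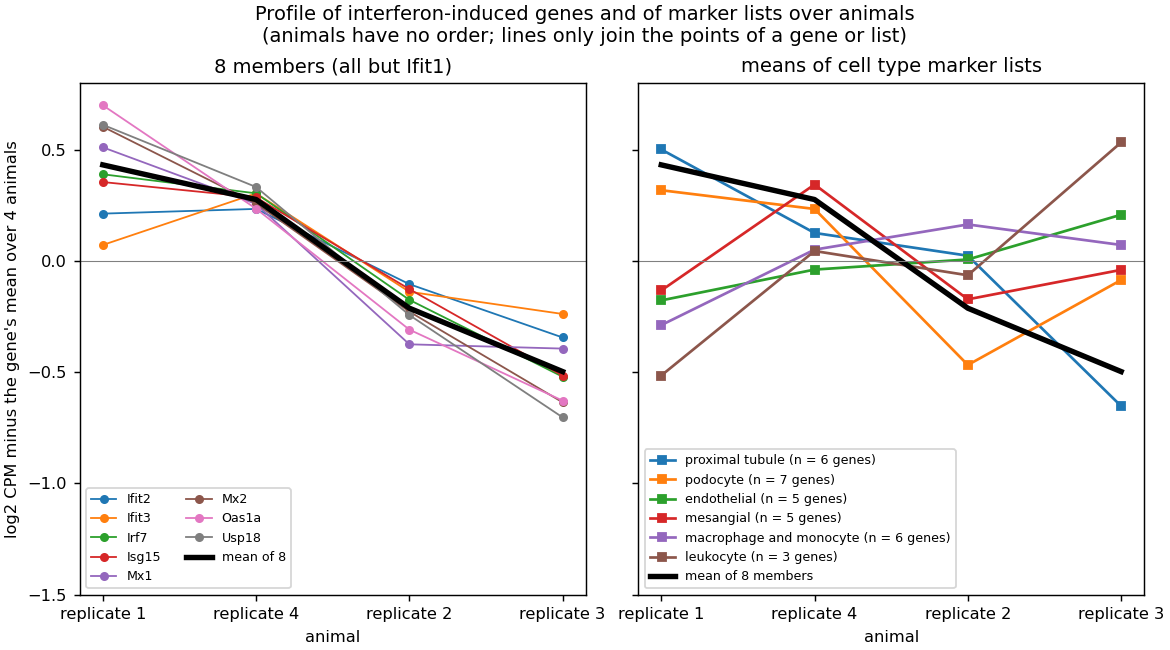
Levels in each animal relative to the mean over the 4 animals (log2 CPM) for the 8 members other than Ifit1 (left) and for the means of 6 marker lists (right), with the mean of the 8 members as a black line; animals are placed by the order the members share. The proximal tubule list falls from 0.50 in replicate 1 to -0.65 in replicate 3 as the members fall from 0.43 to -0.50, while the leukocyte list goes from -0.51 to 0.53.

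The genes whose profile over the 4 animals was nearest to the mean of the 8 members were then sought by the root mean square difference of centred log2 values, among 5914 genes that were not members and had an SD of at least 0.2. The 10 nearest included Zfp708 (0.01), Selenop (0.03), Enpp5, Apmap, Sod3, Psph, Smim13, Adh6 and Wdcp (0.07). None of the 10 belongs to the interferon lists, but these supplied only 49 of the 5914 candidates, so that share alone would hardly place any among 10. Zfp708 had 30 to 52 reads per sample and Smim13 had 19 to 30, so their places are uncertain by counting error. Selenop, which encodes a secreted selenium carrier, had 796, 503, 407 and 673 CPM in replicates 1 to 4. Among the members, Irf7 itself lay at 0.03 from the mean profile and Ifit3 at 0.23.

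Other genes of the interferon system were taken from lists by role, with 107 measured. The 11 interferon ligand genes listed were not analysed here. Of the 107, 31 were highest in replicate 1, near the background of 27.7%, and 34 were lowest there, against 35.0%. The order of the 8 members was found in 23, or 21.5%, against 8.02% of all genes. Their median difference of replicate 1 from the mean of the others was 0.03 (log2) and had no stable sign, at -0.0048 without the mitochondrial genes in the total and -0.0056 without replicate 2. Their median SD was 0.18, against 0.18 for all genes. The spread of 89 of the 107 exceeded Poisson counting, compared with 69.5% of all genes (chi-square test on reads, Benjamini-Hochberg adjusted p under 0.05). With limma's trend, which asks whether a gene varied more than others of like abundance, 0 of the 107 and 0 of all genes (0.0%) passed at an adjusted p under 0.05. At an unadjusted p under 0.05 the numbers were 6 of the 107 and 722 of all (5.44%). The smallest adjusted p of this limma test over all genes was 0.834, so with 4 samples it could hardly call any gene. Its 0 does not show that spread was even. The trend was fitted to these same genes, so an unadjusted share of all genes near the threshold is built in.

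Of the 12 receptors and signal transducers, 2 (Ifngr2 and Irf9) had the order of the members, against 8.02% of all genes. For Ifngr2, replicates 2 and 3 were nearly equal, at 4.771 and 4.765 (log2 CPM). In this list, 6 genes were lowest in replicate 1, against 35.0% of all genes. Ifnar2, a chain of the type I receptor, had 25.7, 36.2, 38.2 and 36.1 CPM and was lowest in replicate 1. Ifnar1, the other chain, had 89.8, 90.1, 111 and 107 CPM, also lowest in replicate 1 but with replicate 2 nearly equal. The type II receptor chains averaged 132 ± 21.3 CPM for Ifngr1 and 29.3 ± 3.59 CPM for Ifngr2 (SD, n = 4). Ifnlr1, the type III receptor chain, had 2.87, 5.12, 6.84 and 6.69 CPM, a difference of -1.09 (log2) in replicate 1, and its partner Il10rb 35.3 ± 2.37 CPM. The kinases Jak1, Jak2 and Tyk2 had 321 ± 26.5, 62.1 ± 3.40 and 67.9 ± 6.35 CPM. Stat2 was even, at 101 ± 4.74 CPM, and Irf9 had 61.3 ± 6.56 CPM.

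The list of interferon regulatory factors leaves out Irf7, a member, and Irf9, which had the members' order and stands with the transducers. In this list, 0 of 7 were highest and 5 were lowest in replicate 1 (27.7% and 35.0% of all genes), with a median difference of -0.26 (log2). The members' order was found in 0 of the 7, against 8.02% of all genes. Irf3, the factor that first switches on interferon genes, averaged 191 ± 36.3 CPM and was 0.58 below the others in replicate 1 (a difference of -0.58), and Irf4 averaged 2.73 ± 0.57 CPM. The 8 negative regulators had a median difference of -0.01, and 0 of the 8 had the members' order (8.02% of all genes). Within them, Socs3, an inhibitor of Jak kinases, had 8.33, 24.6, 16.1 and 25.2 CPM in replicates 1 to 4, the lowest difference of all 107 genes, at -1.37. Socs1 (10.1 ± 0.79 CPM) and Ptpn11 (252 ± 25.1 CPM) were more even.

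The sensors and effectors were divided. In the list of nucleic acid sensors and adaptors, 4 of 14 genes had the members' order (8.02% of all genes), among them Ddx58, which encodes RIG-I, with 36.0, 22.6, 19.0 and 26.9 CPM. Cgas, the cytosolic DNA sensor, was also high in replicate 1, at 3.10 CPM against 1.67 to 2.16 in the others, and Adar averaged 85.4 ± 6.56 CPM. Of the 7 further OAS and IFIT family genes, 5 had the members' order, beside the same 8.02% of all genes. Oasl2 averaged 55.1 ± 10.6 CPM and Oas2 averaged 2.89 ± 0.83 CPM.

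Of the 34 antiviral effectors, 9 had the members' order, again beside 8.02% of all genes. Rtp4, which encodes an interferon-induced receptor chaperone, had 32.3, 15.9, 12.9 and 24.0 CPM and the largest difference of the 107 genes, at 0.92. Bst2 (tetherin) differed little, at 277 ± 9.67 CPM, and Isg20 (an exonuclease) averaged 5.18 ± 0.88 CPM. In the ISG15 conjugation list, Uba7 (the activating enzyme) had 89.3 ± 7.58 CPM and Ube2l6 (the conjugating enzyme) 12.6 ± 1.55 CPM; replicate 1 was above the mean of the others in 4 of 4 genes, against 47.0% of all genes. The same held for 6 of 6 guanylate binding proteins and immunity-related GTPases, or 5 of 6 with mitochondrial genes out of the total, where Gbp5 fell on the other side. The members' order was found in 1 of these 6 and in 1 of the 4 ISG15 conjugation genes, against 8.02% of all genes. The guanylate binding proteins and GTPases chiefly respond to interferon gamma, and their levels ran from Gbp2 at 94.0 ± 14.9 to Gbp4 at 5.11 ± 0.79 CPM. Such levels are not corrected for transcript length and do not rank genes against each other.

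The 11 antigen processing genes had a median difference of -0.03, and 0 of the 11 had the members' order (8.02% of all genes). B2m, the light chain of MHC class I, had 1565 ± 64.3 CPM, and Nlrc5, its transactivator, had 21.9 ± 4.77 CPM. Of the 4 chemokines, 1 had the members' order (8.02% of all genes): Cxcl11, with 34.1, 32.1, 25.9 and 45.7 CPM. Cxcl10 was lowest in replicate 3 as well, at 12.4, 13.8, 11.0 and 18.4 CPM. Ccl5 had 3.54, 8.39, 9.84 and 7.08 CPM, with a difference of -1.23, and Cxcl16 averaged 139 ± 4.63 CPM. The order of the 8 members was shown by 8 of the 38 genes of these lists with the promoter motif (21.1%) and by 8 of the 49 without it (16.3%). This difference was not tested.

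**Figure D4:**
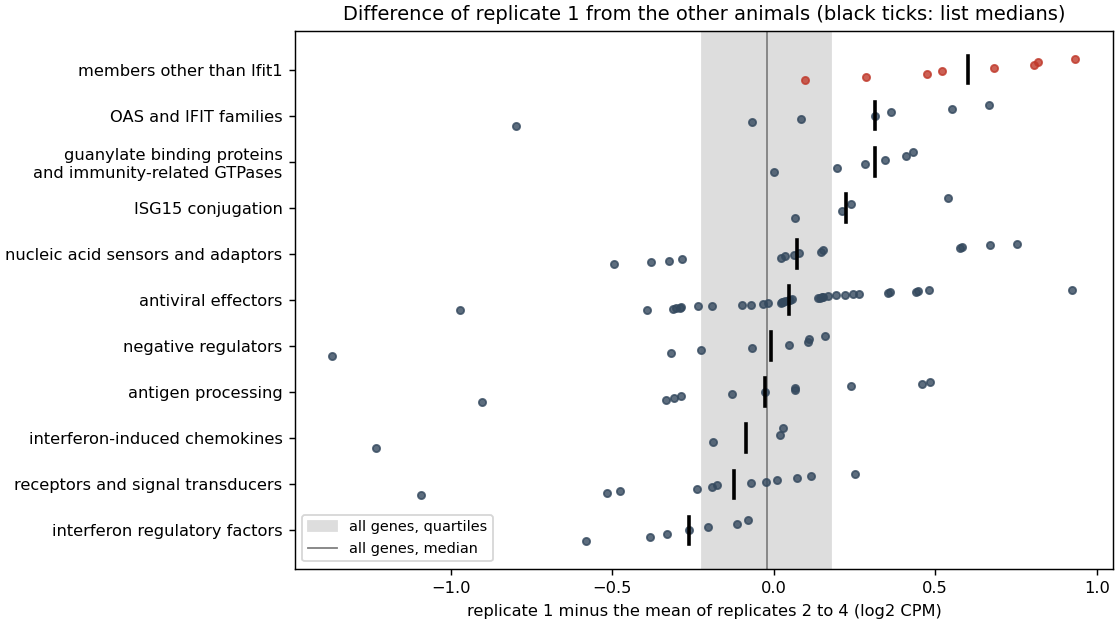
Difference between replicate 1 and the mean of the other animals (log2 CPM) for each gene of the interferon lists (points) with list medians (black ticks); the grey band and line show the quartiles and median of all genes. The 8 members lie between 0.10 and 0.93, the 7 genes of the list of interferon regulatory factors (without Irf7 and Irf9) lie below 0, and the other lists extend to both sides or above.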

How the data were processed

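Per the labels' protocols, poly(A) RNA of sieved glomeruli (RNA integrity number above 7) was made into stranded libraries and sequenced as paired ends; lanes are not separate. Per the submitters' processing notes, HISAT2, featureCounts, Subread and limma were used with the build Rnor_6.0; versions, strand use and filters are not given in the sources used here. The authors deposited log2 values, 1 column per sample. In 100% of the values used, 2 raised to the deposited value was, within 0.01 reads, a whole number of reads plus 0.5 times a constant of the sample, so they are log2 CPM scaled to the total over the listed genes. The recovered reads sum to 13566962, 16207027, 15348629 and 15244063 in replicates 1 to 4. In 4 rows the values were displaced between columns, and these rows were left out; 116 rows share a symbol with another and were not used by symbol.

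Titles tied each column to its sample; replicate numbers follow accession order. The members and gene lists were chosen with earlier results of these data known. Counting intervals are exact Poisson. Spread was tested over all genes by a chi-square index on reads and by an intercept-only limma fit (limma 3.58.1, R 4.3.3) whose residual variance was compared with the abundance trend, adjusted by Benjamini-Hochberg; both were tested on simulated data. These tests are printed only for genes that are not members. Genes were named by rule: all members, receptors and transducers, in each list the gene with the highest and that with the lowest mean, the 3 largest and 3 smallest differences of replicate 1, the 10 genes nearest the members, the 5 nearest Ifit1 and its 5 neighbours on each side. Other genes, named as examples of a list, were chosen after their values were seen. A few genes within the rule are not reported here.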

Additional observations from a re-analysis of the deposited data

Results flagged for a closer look

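Among 51 genes under the naming rule, with the members and the genes nearest Ifit1 left out, 3 had an animal that stood away from the rest. The measure was the ratio of the gap to the range of the log2 values, at Dixon's 95% critical value. Chance alone would give 2.55 for genes not chosen by their values. The 51 still hold the 10 genes nearest the members and the 3 largest and 3 smallest differences of replicate 1. These were chosen by their values, so the chance figure is only a rough guide. Over all genes the share was 5.08%. Ifnar2 was set apart by replicate 1, with a ratio of 0.857 and 349 reads against 586, 586 and 550. Ifngr2 was set apart by replicate 4, with a ratio of 0.863 and 528 reads against 381, 442 and 417. Cxcl16 was set apart by replicate 2, with a ratio of 0.914, although its 1915, 2144, 2170 and 2165 reads in replicates 1 to 4 did not exceed Poisson counting (chi-square test on reads, Benjamini-Hochberg adjusted p = 0.0843).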

How the results depend on the processing

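Recomputing gave 167 values, of which 161 kept to their criterion, 5 moved and the difference of 1 member changed sign. Counts had to stay within a factor of 1.5 of the main value, levels and differences within an SD between animals. Only member differences were checked for sign. The criterion was loose: the Ifit1 mean went from 3.29 to 5.20 (log2) without replicate 1 and kept to it. So did the median difference of the other interferon genes, at -0.0048 without mitochondrial genes and -0.0056 without replicate 2, a change of sign. The order of the 8 members was found in 8 of them under both other scalings, on log2(CPM + 1) and without each replicate, a comparison chosen after seeing the data. The last 2 settings could hardly change it, because log2(CPM + 1) nearly keeps the ranks and leaving out a replicate only removes conditions. In the other interferon genes that order was found in 23, and in 26 to 58 without a replicate, with 49 without replicate 2 and 58 without replicate 3, where fewer animals make the order easier to meet (35.2% and 39.6% of all genes). The number of them highest in replicate 1 was 31, and 35 to 54 without a replicate, with 54 without replicate 4, where the share of all genes was 36.4%. Median-of-ratios factors made Ifit2 highest in replicate 1 as well, giving 7 members. The difference of replicate 1 for Ifit3 ran from -0.0107 without replicate 3, a change of sign, to 0.26 without replicate 4. That for Ifit1 was -5.04 on log2(CPM + 1), whose added constant sets the size. The shorter core, GAAA followed by any 2 bases and GAA, occurred in 9.71% of promoters. Leaving mitochondrial genes out of the total raised all values by 0.11 to 0.20 (log2). No paired analysis was possible because the samples form a single group. At this depth 1 read is worth 0.0617 to 0.0737 CPM.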

Other observations

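The classical MHC class I genes of the antigen processing list, looked up after their values were seen, did not move together. RT1-A1 was 0.90 below the mean of the others in replicate 1 (a difference of -0.90), and RT1-A2 was 0.46 above it. Both have close copies, so the division of reads between them is uncertain.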
